A study of Mus musculus with 6 samples.

Results

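Sterol and fatty acid synthesis genes were examined in tumour endothelial cells that did or did not carry injected nanoparticles. The set holds 30 genes chosen by name for their role in making cholesterol or fatty acids, or in controlling that synthesis, out of 49315 gene IDs counted in the series. All 30 were found by symbol and all 30 passed the filter on low counts. The cells came from tumours of 4T1, a mouse breast carcinoma line that is transplanted, after 4T1 cells were placed in the inguinal fat pad of the mammary gland of Balb/c females at 8 weeks of age. Tumours grew for 2 weeks, so the mice were 10 weeks old. Every mouse, in both groups, received 1E12 gold nanoparticles by tail vein 1 hour before harvest, so no library here comes from a mouse without particles. The particles were 50 nm across and carried methoxy polyethylene glycol of 5 kDa and the dye Cy5. After depletion of CD45+ leukocytes and enrichment of CD31+ endothelial cells, flow cytometry separated nanoparticle-positive (NP+) from nanoparticle-negative (NP-) cells. The 3 NP+ libraries and the 3 NP- libraries come from the same 3 tumours, whose labels are MET-106, MET-107 and MET-108.

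Cells build cholesterol from acetyl-CoA through the mevalonate pathway, then squalene, then a ring closed and trimmed by a chain of enzymes in the endoplasmic reticulum. Fatty acid synthesis starts from the same acetyl-CoA, which ATP citrate lyase makes in the cytosol, and ends in elongation and desaturation. Both routes answer to the SREBP transcription factors: when sterol in the membrane is low, SCAP escorts SREBP to the Golgi for cleavage, and when it is high, INSIG proteins hold the pair back. SREBP2 acts mainly on sterol genes and SREBP1 mainly on fatty acid genes. In endothelial cells cholesterol also builds caveolae and other membrane domains.

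SREBPs bind sterol response elements beside CCAAT boxes, which NF-Y binds, and GC boxes, which Sp1 binds. Promoters were therefore searched on both strands for the letters of these motifs. RefSeq windows (GRCm38.p6, from 250 bases before to 50 after the start site) were given for 24 of the 30 genes, in 32 windows, and were missing for Fdft1, Fdps, Scd1, Scd2, Sqle and Stard4. The classical sterol response element was in none of the 32 windows and in 0.0913% of all 32851 windows. The looser form TCACNCCAC, which includes it, was in 1 of 32 windows (3.13%), that of Hmgcs1, and in 1.24% of all windows. CCAAT was in 65.6% of the 32 windows and 37.4% of all windows, which makes 20 of 24 genes (83.3%, against 41.1% of all genes), all but Acaca, Acat2, Elovl6 and Scap. GGGCGG was in 75.0% of the 32 windows and 35.7% of all windows, again 20 of 24 genes (83.3%, against 38.2% of all genes), all but Acaca, Elovl6, Fasn and Pmvk. No share was taken over the promoters of genes expressed in these cells alone, so whether these shares are particular to the set was not tested. A match describes letters in these windows and is no measured binding site. Near matches were not searched, so a window without a match may still hold a variant of the sterol response element.

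The upstream 250 bases are shown for 4 genes, 5′ to 3′ on the strand of the gene. Hmgcs1 holds the TCACNCCAC match, while Insig1, Mvd and Srebf2 were chosen after their values were seen, because they are among the genes farthest above NP- in the comparison. Scap is not shown, although its log2 fold change of 0.58 is above the 0.56 of Mvd and of Srebf2. Its windows hold GC boxes but no CCAAT, so the sequences shown do not stand for all of the highest genes. Capitals mark TCACNCCAC, CCAAT and GGGCGG on either strand, so that ATTGG and CCGCCC are capitals too. The windows are chr13:119690101-119690350 on the plus strand for Hmgcs1, chr5:28071162-28071411 on the plus strand for Insig1, chr8:122443423-122443672 on the minus strand for Mvd and chr15:82147019-82147268 on the plus strand for Srebf2. They end just before the RefSeq start site, which for Hmgcs1 lies before the start of the gene in the count files (119690462). For Insig1 and Srebf2 the gene in the count files starts inside the window, at 28071363 and 82147266, so the last printed bases lie within the gene as counted.
Hmgcs1: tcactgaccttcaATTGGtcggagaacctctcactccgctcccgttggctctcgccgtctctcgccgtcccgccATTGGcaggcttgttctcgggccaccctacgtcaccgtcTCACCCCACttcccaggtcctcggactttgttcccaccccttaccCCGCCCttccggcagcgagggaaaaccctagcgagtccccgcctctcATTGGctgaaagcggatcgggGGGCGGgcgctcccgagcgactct
Insig1: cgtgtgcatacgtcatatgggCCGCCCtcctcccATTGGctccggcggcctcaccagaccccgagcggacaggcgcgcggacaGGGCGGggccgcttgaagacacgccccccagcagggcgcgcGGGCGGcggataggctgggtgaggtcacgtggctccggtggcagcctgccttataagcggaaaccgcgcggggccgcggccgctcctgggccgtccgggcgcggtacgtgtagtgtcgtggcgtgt
Mvd: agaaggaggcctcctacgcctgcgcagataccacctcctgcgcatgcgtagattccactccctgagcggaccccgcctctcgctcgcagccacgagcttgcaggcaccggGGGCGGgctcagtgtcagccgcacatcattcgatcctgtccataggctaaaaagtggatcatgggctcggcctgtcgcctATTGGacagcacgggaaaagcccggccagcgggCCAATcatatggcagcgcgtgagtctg
Srebf2: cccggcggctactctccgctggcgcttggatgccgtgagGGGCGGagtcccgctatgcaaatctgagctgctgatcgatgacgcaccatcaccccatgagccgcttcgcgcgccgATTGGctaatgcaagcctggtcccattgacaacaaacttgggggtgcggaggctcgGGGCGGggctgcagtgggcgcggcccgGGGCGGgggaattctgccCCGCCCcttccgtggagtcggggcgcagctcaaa
In Hmgcs1 the TCACNCCAC match begins at position −137 from the start site, between inverted CCAAT boxes that begin at positions −176 and −45. The upstream bases of Srebf2 hold 4 GC boxes and 1 CCAAT box, those of Insig1 hold 3 GC boxes and 1 CCAAT box, and those of Mvd hold 1 GC box and 2 CCAAT boxes.

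NP+ libraries held 41830256, 58089600 and 44901340 gene counts, in the order of the tumour numbers, and NP- libraries 44694267, 20856410 and 27396773. The summed level of 14 endothelial markers was 16960, 14450 and 16360 CPM (counts scaled to library size, here with TMM factors) in NP+ libraries and 9162, 11800 and 12380 CPM in NP- libraries, so both fractions carry the labelled cell type. The NP- library of MET-106 stands apart: 10 fibroblast markers summed to 4223 CPM there, against 201 and 82.5 CPM in the other NP- libraries and 25.8 to 77.3 CPM in NP+ libraries. Its 15 epithelial and carcinoma markers summed to 655 CPM, against 45.03 and 33.2 CPM in the other NP- libraries and 12.4 to 18.0 CPM in NP+ libraries. Macrophage markers (28.6, 26.4 and 17.5 CPM in NP+ libraries, 123, 69.2 and 42.8 CPM in NP- libraries) and pericyte markers (98.6 to 125 CPM in NP+, 164 to 893 CPM in NP-) had lower sums in NP+ libraries too. At an unadjusted p under 0.05, 9 of 10 fibroblast, 10 of 11 tested epithelial, 5 of 10 macrophage and 7 of 10 pericyte markers were lower in NP+, where 15.4% of all genes tested were, and none was higher or passed the adjusted p of edgeR. With the tumour as a block, 9 of 10 fibroblast, 4 of 11 epithelial, 4 of 10 macrophage and 7 of 10 pericyte markers were lower at an unadjusted p under 0.05. Over all genes tested, 14.6% were lower in that fit. Without the NP- library of MET-106, 4 of 10 fibroblast, 4 of 11 epithelial, 4 of 10 macrophage and 3 of 10 pericyte markers were lower, where 22.4% of all genes tested were. All 14 endothelial markers (12 with total-count scaling) and 14 of 14 cell cycle genes (12 with total-count scaling) had positive log2 fold changes, with medians of 0.43 and 0.63. Counts over 1405 olfactory receptor genes, which these cells are not known to use, came to 0.0327, 0.100 and 0.0583 CPM per kilobase in NP+ libraries and 0.0872, 0.422 and 0.336 in NP- libraries. The part of these differences in the values below was not tested, except where a value without the library or without the olfactory receptor level is given.

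The synthesis genes were expressed in both fractions, and their fold changes were near those of other genes of their level. The 30 genes summed to 2448, 2043 and 2087 CPM in NP+ libraries and 1626, 1765 and 2100 CPM in NP- libraries, and the groups overlap because MET-108 NP- lies with the NP+ libraries. In bulk samples, fewer cells of a type and less RNA per cell cannot be told apart. In edgeR's quasi-likelihood test over 23989 genes, none of the 30 passed an adjusted p of 0.05 in either direction, and the lowest adjusted p was 0.135. Over all genes tested, 0.0125% passed higher in NP+ and 0.0167% lower, and over the 10717 genes with at least 5 CPM in 3 libraries, 0.028% and 0.0373%. At an unadjusted p under 0.05, 4 of 30 were higher in NP+ (Insig1, Scap, Mvd and Srebf2) and 2 lower (Scd1 and Acaca). The shares over all genes tested were 8.01% higher and 15.4% lower, and over the 10717 genes, whose level 29 of the 30 share, 17.7% and 4.18%. The set's counts are thus near those of genes expressed at such levels. The median log2 fold change was 0.20 over the 30 genes, −0.29 over all genes tested and 0.25 over the 10717. DESeq2 called 1 of the 30 higher, Scap (adjusted p = 0.0285), and 1 lower, Scd1 (adjusted p = 0.0143). Over the 21548 genes to which it gave an adjusted p, it called 966 higher and 2365 lower. In the authors' deposited table, Scap (adjusted p = 0.0363) and Scd1 (adjusted p = 0.0225) passed too, where 3.71% of genes were higher in NP+ and 9.45% lower, and Insig1 had an adjusted p of 0.0504. That table rests on the same libraries, and the submitters' processing notes name DESeq2, so it is no independent result.

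The unadjusted counts depended on single libraries. Without NP+ MET-106, MET-107 or MET-108, 1, 2 and 3 genes were higher and 1, 1 and 0 lower. Without NP- MET-106, MET-107 or MET-108, 4, 2 and 7 were higher and 2, 1 and 2 lower. Over all genes tested the shares in these 6 fits lay between 3.89% and 12.3% higher and between 7.85% and 22.4% lower, both greatest without NP- MET-106. The scaling mattered as well: with upper-quartile or total-count scaling, or TMM among genes of at least 5 CPM, none of the 30 was higher at an unadjusted p under 0.05 and 3 were lower. Over all genes in these fits, 3.27%, 2.54% and 6.44% were higher and 19.6%, 21.0% and 8.75% lower. The median log2 fold change of the 30 was then −0.05, −0.09 and −0.07 in these settings. Upper-quartile and total-count scaling moved the median of all genes tested as well, to −0.53 and −0.59, so the 30 stayed 0.48 and 0.49 above it, against 0.49 with TMM, while among genes of at least 5 CPM the difference was −0.05. With the tumour as a block, 3 were higher (Insig1, Mvd and Scap) and 1 lower (Scd1), where 7.85% of all genes tested were higher and 14.6% lower.

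**Figure D1:**
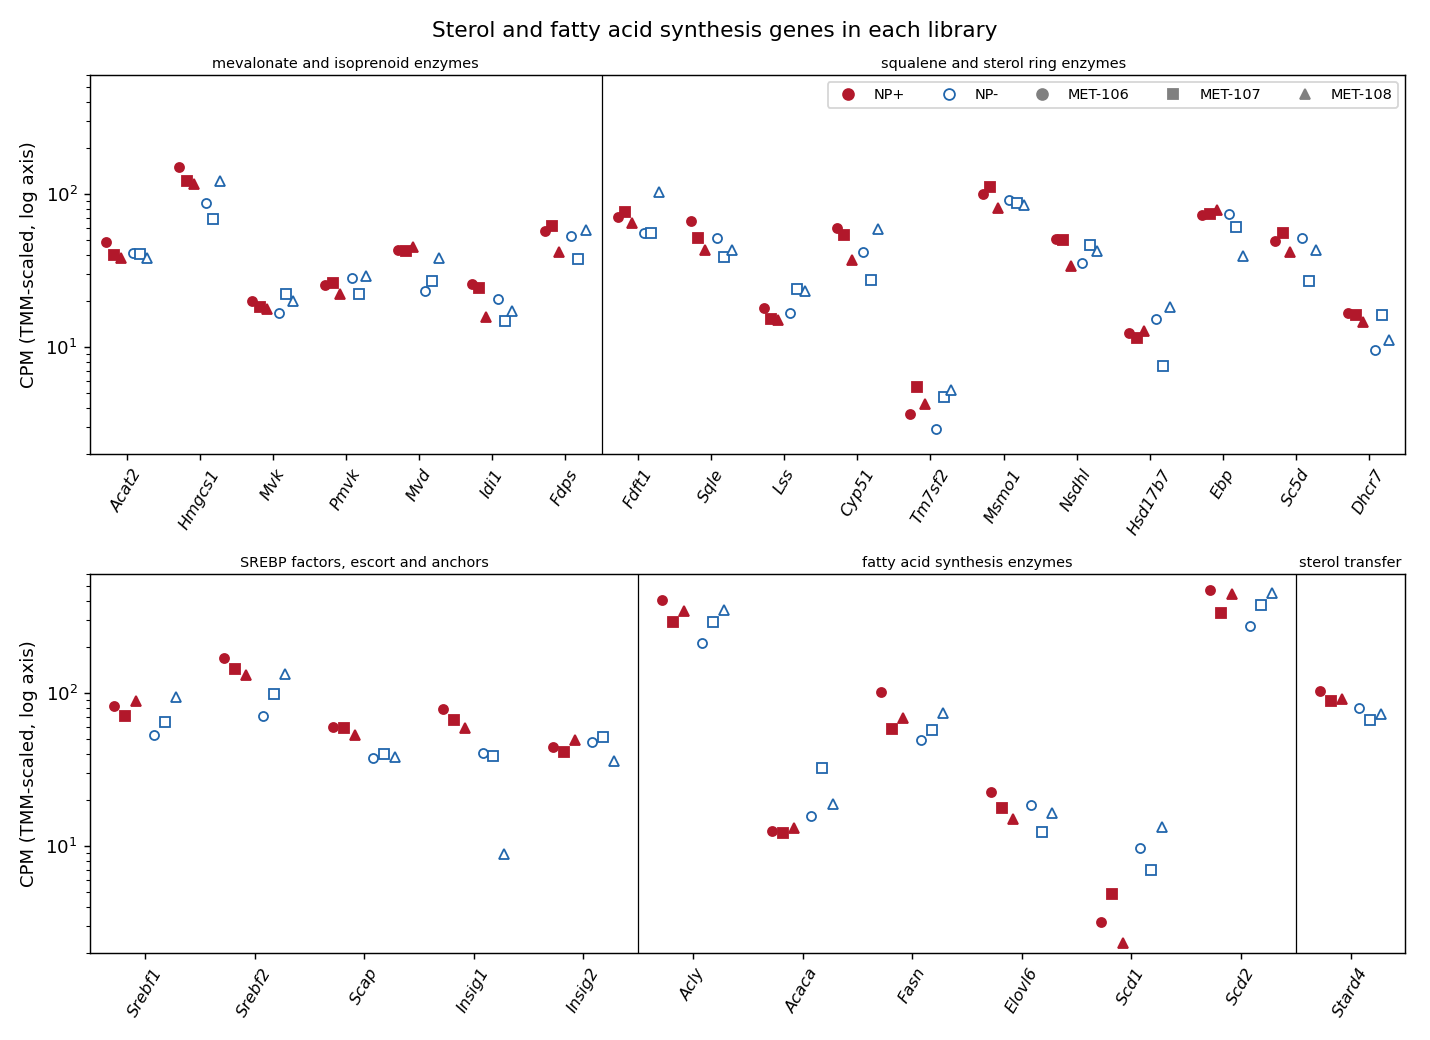
Level of each of the 30 genes in the 6 libraries, in CPM on a log axis, with NP+ as filled red and NP- as open blue symbols and the tumour by shape. Most genes overlap between the groups; Scd1 and Acaca lie lower in all 3 NP+ libraries, and the MET-108 NP- library is far below the others for Insig1 (8.81 CPM).

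Members of the SREBP machinery had the highest median of the 5 roles, with a median log2 fold change of 0.56 over 5 genes and 4 of 5 positive (3 of 5, with medians of 0.29 and 0.26, under upper-quartile and total-count scaling). Summed, they reached 435, 381 and 381 CPM in NP+ libraries and 250, 292 and 309 CPM in NP- libraries, without overlap. The sums of the 14 endothelial markers did not overlap either, with a ratio of means of 1.43, against 1.41 for the SREBP machinery. Of single genes with at least 5 CPM in 3 libraries, 27.8% lay higher in NP+ without overlap. Insig1 (ENSMUSG00000045294, chr5:28071363-28078662, plus strand), which retains SCAP in the endoplasmic reticulum and is itself an SREBP target, had 78.8, 66.2 and 59.0 CPM in NP+ libraries, given as elsewhere in the order of the tumour numbers, against 40.6, 38.5 and 8.81 CPM in NP- libraries. All NP+ libraries lie above all NP- libraries, and the lowest value by far is NP- of MET-108. The means were 67.97 ± 10.0 CPM in NP+ and 29.3 ± 17.8 CPM in NP- (SD, n = 3 each), a log2 fold change of 1.21 (SE 0.48, unadjusted p = 0.0329, edgeR adjusted p = 0.182). Across the settings tried, its log2 fold change ran from 0.80, without NP- of MET-108, to 1.60, and its adjusted p was 0.0454 when no low-count filter was used.

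Scap (ENSMUSG00000032485, chr9:110333288-110384950, plus strand), the escort of SREBP and its sterol sensor, had 59.7, 59.2 and 53.2 CPM in NP+ libraries and 37.3, 39.9 and 37.9 CPM in NP- libraries. The groups do not overlap, and libraries of one group lie close together. Its log2 fold change was 0.58 (SE 0.17, unadjusted p = 0.00868, edgeR adjusted p = 0.139), and its means were 57.4 ± 3.60 CPM for NP+ and 38.4 ± 1.33 CPM for NP- (SD, n = 3 each). Srebf2 (ENSMUSG00000022463, chr15:82147266-82205376, plus strand), the sterol-directed SREBP, had 170.0, 143 and 131 CPM in NP+ libraries and 70.9, 98.0 and 133 CPM in NP- libraries. Here the groups overlap, since NP- of MET-108 exceeds NP+ of the same tumour. The log2 fold change was 0.56 (SE 0.24, unadjusted p = 0.0483, edgeR adjusted p = 0.211), and the unadjusted p was 0.0627 with the tumour as a block.

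Srebf1, which codes for SREBP1, had 82.1, 70.9 and 88.5 CPM in NP+ libraries and 53.5, 64.4 and 93.8 CPM in NP- libraries, with a log2 fold change of 0.19 (SE 0.24, edgeR adjusted p = 0.626). Insig2, the second anchor of SCAP, had 44.4, 41.2 and 49.2 CPM in NP+ libraries and 48.0, 51.1 and 35.9 CPM in NP- libraries, with a log2 fold change of −0.00 (SE 0.21, edgeR adjusted p = 0.995). Both genes overlap widely between the groups. Per length, Insig1 stood to Insig2 at RPKM ratios of 1.99, 1.80 and 1.35 in NP+ libraries and 0.950, 0.845 and 0.276 in NP- libraries, so Insig1 was the higher of the pair in every NP+ library and the lower in every NP- library. Srebf2 exceeded Srebf1 in all 6 libraries, with RPKM ratios of 2.34, 2.28 and 1.67 in NP+ libraries and 1.497, 1.72 and 1.60 in NP- libraries, which overlap. No test was run on these ratios.

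**Figure D2:**
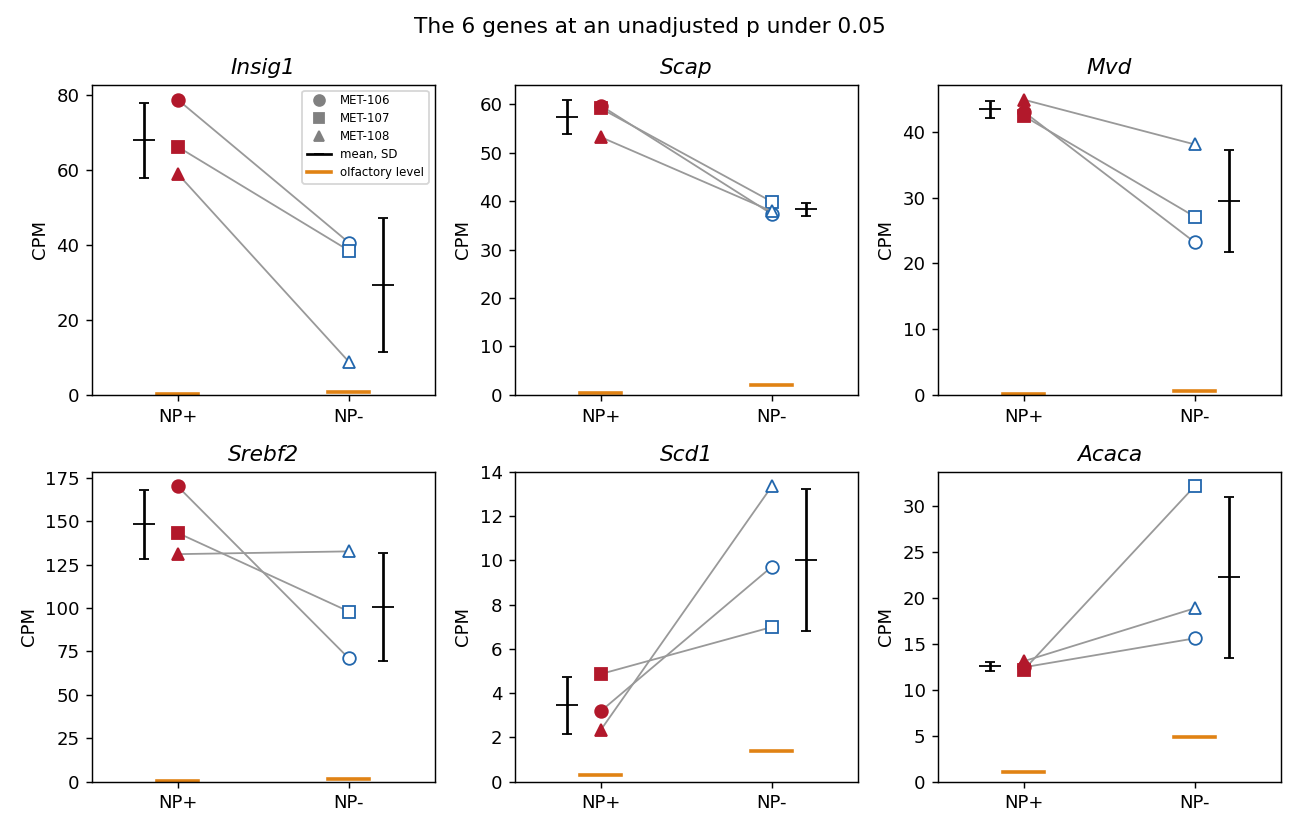
CPM in each library of the 6 genes at an unadjusted p under 0.05, NP+ left of NP-, with grey lines joining libraries of the same tumour, black bars for mean and SD and orange bars for the level that olfactory receptor counts give for the gene's length. Insig1, Scap and Mvd are higher and Scd1 and Acaca lower in NP+ in 3 of 3 tumours, and Srebf2 is higher in 2 of 3.

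Among the 7 enzymes of the mevalonate and isoprenoid steps, 5 had positive and 2 negative log2 fold changes, with a median of 0.12 that became −0.12 under upper-quartile and −0.17 under total-count scaling. Mvd (ENSMUSG00000006517, chr8:122433601-122443422, minus strand), the decarboxylase that makes isopentenyl diphosphate, had 43.1, 42.5 and 44.9 CPM in NP+ libraries and 23.2, 27.1 and 38.1 CPM in NP- libraries. The groups do not overlap, and the NP+ libraries are nearly alike while the NP- libraries spread. Its log2 fold change was 0.56 (SE 0.23, unadjusted p = 0.0393, edgeR adjusted p = 0.195), and its means were 43.5 ± 1.29 CPM for NP+ and 29.5 ± 7.73 CPM for NP- (SD, n = 3 each). Hmgcs1 (ENSMUSG00000093930, chr13:119690462-119708086, plus strand), which condenses acetyl-CoA with acetoacetyl-CoA and has the highest RPKM of this role, had 151, 122 and 116 CPM in NP+ libraries and 87.6, 69.0 and 121 CPM in NP- libraries. The MET-108 NP- library again overlaps the NP+ range. Its log2 fold change was 0.48 (SE 0.24, unadjusted p = 0.0712, edgeR adjusted p = 0.248).

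The other 5 genes of these steps had log2 fold changes between −0.10 and 0.32 and overlapped between the groups. Idi1, the isomerase of isopentenyl diphosphate, was at 0.32, Fdps, which makes farnesyl diphosphate, at 0.12 and Acat2, the first thiolase of the route, at 0.08. The kinases Pmvk and Mvk were at −0.10 and −0.08. Adjusted p-values of these 5 ran from 0.483 to 0.850.

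In the 11 genes of the squalene and sterol ring steps, none reached an unadjusted p of 0.05, 8 log2 fold changes were positive and 3 negative, and the median was 0.15, against −0.09 under upper-quartile and −0.14 under total-count scaling. Ebp (ENSMUSG00000031168, chrX:8185329-8193512, minus strand), the isomerase that moves a double bond in the sterol ring and the highest of this role per length, had 73.3, 73.8 and 78.2 CPM in NP+ libraries and 74.2, 61.1 and 39.6 CPM in NP- libraries. The NP+ libraries are level and the NP- libraries are not, with MET-106 inside the NP+ range. Its log2 fold change was 0.36 (SE 0.24, unadjusted p = 0.163, edgeR adjusted p = 0.362). Dhcr7, which makes cholesterol from its last precursor in one branch, was also at 0.36 and was higher in NP+ in 3 of 3 tumours, by 0.79, 0.01 and 0.39 on the log2 scale. Squalene epoxidase Sqle was at 0.27, the desaturase Sc5d at 0.26 and the demethylase Cyp51 at 0.23. Msmo1 and Nsdhl, which remove methyl groups at carbon 4 of the ring, were at 0.15 and 0.11. Tm7sf2, a sterol reductase and the only one of the 30 under 5 CPM in more than 3 libraries, was at 0.06.

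Lss, which closes the sterol ring, was the lowest of this role, with 18.2, 15.2 and 15.0 CPM in NP+ libraries and 16.7, 24.0 and 23.4 CPM in NP- libraries and a log2 fold change of −0.41 (SE 0.26, unadjusted p = 0.146, edgeR adjusted p = 0.341). The gene is long in these files, so the olfactory receptor level alone corresponds to 3.04 CPM of its NP- mean, or 14.2%. The ratio of means was 0.754 as measured and 0.841 after that level was taken off. Hsd17b7, the 3-ketosteroid reductase, was at −0.18 and Fdft1, squalene synthase, at −0.02. Fdft1 shares 767 of its 2860 exon bases with the abundant gene Ctsb on the opposite strand, and Tm7sf2 shares 532 of 3484 with Vps51. Scap shares 985 of its 7443 exon bases with the opposite-strand gene 5830462I19Rik, which had 528 counts over all libraries, against 11419 for Scap. Counts of these genes are uncertain, because the kit does not mark strand and the handling of reads in shared exons is not stated.

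Fatty acid genes held the levels at both ends of the set and its lowest fold changes. Of 6 genes, 4 had positive and 2 negative log2 fold changes, with a median of 0.20 that became −0.06 under upper-quartile and −0.10 under total-count scaling. Scd1 (ENSMUSG00000037071, chr19:44394451-44407709, minus strand), the stearoyl-CoA desaturase known from fat and liver, had 3.18, 4.86 and 2.33 CPM in NP+ libraries and 9.71, 6.98 and 13.4 CPM in NP- libraries. All NP+ libraries lie below all NP- libraries. The means were 3.46 ± 1.29 CPM in NP+ and 10.0 ± 3.20 CPM in NP- (SD, n = 3 each), a log2 fold change of −1.53 (SE 0.44, unadjusted p = 0.00758, edgeR adjusted p = 0.135). Taking off the olfactory receptor level left a ratio of means of 0.364, against 0.345 as measured. In mouse fat Scd1 is abundant, and 12 of 15 adipocyte markers, all but Lipe, Pparg and Pnpla2, summed to 4.37, 5.45 and 4.59 CPM in NP+ libraries and 11.6, 15.4 and 12.7 CPM in NP- libraries. The olfactory receptor level for their summed length corresponds to 1.05, 3.21 and 1.87 CPM in NP+ libraries and 2.79, 13.5 and 10.8 CPM in NP- libraries. Less that level, the sum was 3.32, 2.23 and 2.72 CPM in NP+ libraries and 8.84, 1.90 and 1.93 CPM in NP- libraries, which overlap. That sum was chosen after seeing the data, and all 15 together had 272 to 314 CPM in NP+ libraries and 248 to 346 CPM in NP- libraries, with 1 of 11 tested lower at an unadjusted p under 0.05. Adipoq, the defining adipocyte gene, was at 0 in NP+ of MET-106 and NP- of MET-108 and at 0.624 CPM or below elsewhere. The part of these markers in the Scd1 values was not tested.

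Scd2 (ENSMUSG00000025203, chr19:44293676-44306864, plus strand), the paralog with the same reaction, had the highest level per length of the 30, 71.9 RPKM over 6 libraries. It had 469, 334 and 446 CPM in NP+ libraries and 274, 378 and 450.1 CPM in NP- libraries, which overlap, and a log2 fold change of 0.18 (SE 0.23, edgeR adjusted p = 0.635). Per length, Scd2 exceeded Scd1 at RPKM ratios of 131, 60.8 and 170 in NP+ libraries and 25.04, 48.0 and 29.9 in NP- libraries. Scd2 was far above Scd1 in both fractions. With the olfactory receptor level taken off both genes, a step chosen after seeing the data, the ratios were 137.5, 67.5 and 193 in NP+ libraries and 26.1, 67.5 and 33.9 in NP- libraries, so in MET-107 the fractions then had the same ratio. The genes are paralogs, and how reads that fit both were counted is not given in the sources used here.

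**Figure D3:**
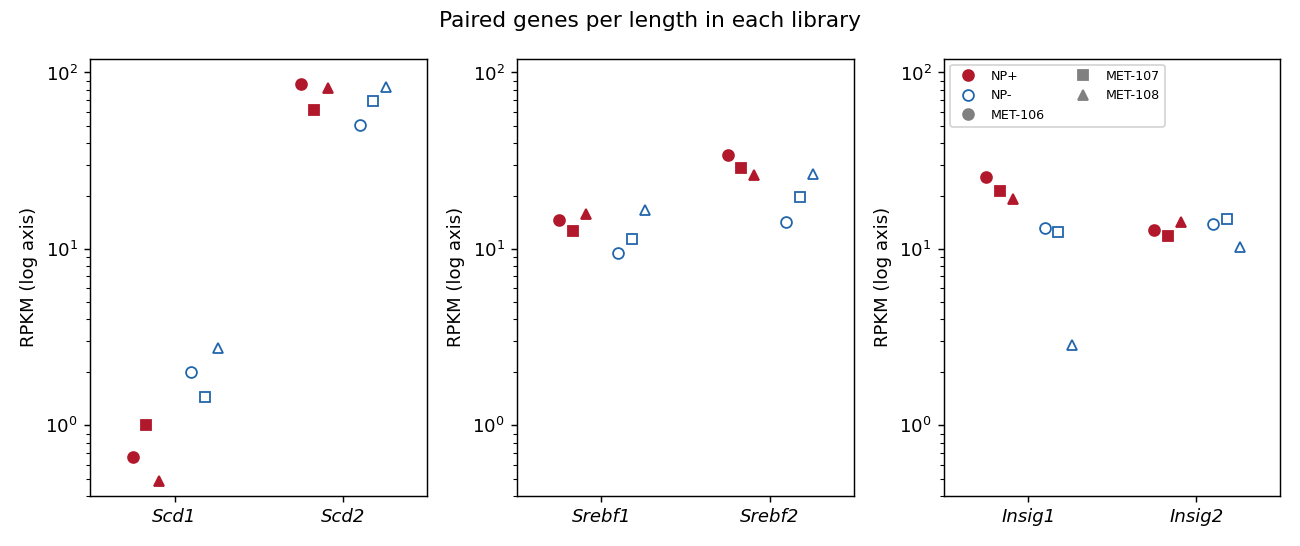
RPKM of both genes of 3 related pairs in each library, on a log axis, with NP+ as filled red and NP- as open blue symbols and the tumour by shape. Scd2 lies far above Scd1 in every library, by 60.8 to 170 times in NP+ and 25.04 to 48.0 times in NP-, and Insig1 lies above Insig2 in NP+ and below it in NP-.

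Acaca (ENSMUSG00000020532, chr11:84129672-84401651, plus strand), acetyl-CoA carboxylase 1 and the committed step of fatty acid synthesis, had 12.5, 12.2 and 13.1 CPM in NP+ libraries and 15.6, 32.2 and 18.9 CPM in NP- libraries. The groups do not overlap, the NP+ libraries are nearly level and NP- of MET-107 is the highest. The log2 fold change was −0.82 (SE 0.32, unadjusted p = 0.0293, edgeR adjusted p = 0.176), and its means were 12.6 ± 0.481 CPM for NP+ and 22.2 ± 8.79 CPM for NP- (SD, n = 3 each). With the tumour as a block the unadjusted p was 0.0562, and without NP- of MET-107 the log2 fold change was −0.44. The olfactory receptor level for a gene of this length corresponds to 1.09 CPM of the NP+ mean and 4.81 CPM of the NP- mean, or 21.6%. After it was taken off, a step chosen after seeing the data, the ratio of means was 0.660, against 0.566 as measured.

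Acly, ATP citrate lyase and the source of cytosolic acetyl-CoA, was second to Scd2 per length (59.8 RPKM) and had 407, 291 and 346 CPM in NP+ libraries and 212, 289 and 349 CPM in NP- libraries. Its groups overlap, and the log2 fold change was 0.30 (SE 0.23, edgeR adjusted p = 0.427). Fasn, fatty acid synthase, was at 0.34 and Elovl6, which elongates its product, at 0.22. For Fasn and Acly, NP+ stood far above NP- in MET-106 alone, by 1.04 and 0.94 on the log2 scale, against values from −0.11 to 0.03 in the other tumours. Stard4, which carries sterol between membranes and is encoded on chromosome 18, had 104, 88.1 and 91.7 CPM in NP+ libraries and 79.6, 67.0 and 72.7 CPM in NP- libraries. Its groups do not overlap, and the log2 fold change was 0.37 (SE 0.17, unadjusted p = 0.0577, edgeR adjusted p = 0.227).

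Compared per length over all 6 libraries, the order of levels began with Scd2, Acly (59.8), Hmgcs1 (34.4), Ebp (28.9), Srebf2 (24.9), Fdft1 (24.8) and Mvd (19.6 RPKM). It ended with Scd1 (1.39), Tm7sf2 (1.26) and Acaca (1.02 RPKM). All neighbours in this order overlap in their ranges over the 6 libraries, Scd2 (50.3 to 86.1 RPKM) with Acly (40.1 to 77.1 RPKM) for instance, except Idi1 (4.25 to 7.34 RPKM) and Elovl6 below it (1.91 to 3.48 RPKM). Within fatty acid synthesis the RPKM of the carboxylase was therefore far below that of the lyase before it and of the synthase after it (Fasn, 6.24 RPKM). These values rest on the lengths in the count files, 17074 bases for Acaca, 10947 for Fasn and 5279 for Acly. In CPM, Acaca was lower too, with means of 12.6 in NP+ and 22.2 in NP-, against 76.3 and 60.3 for Fasn.

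**Figure D4:**
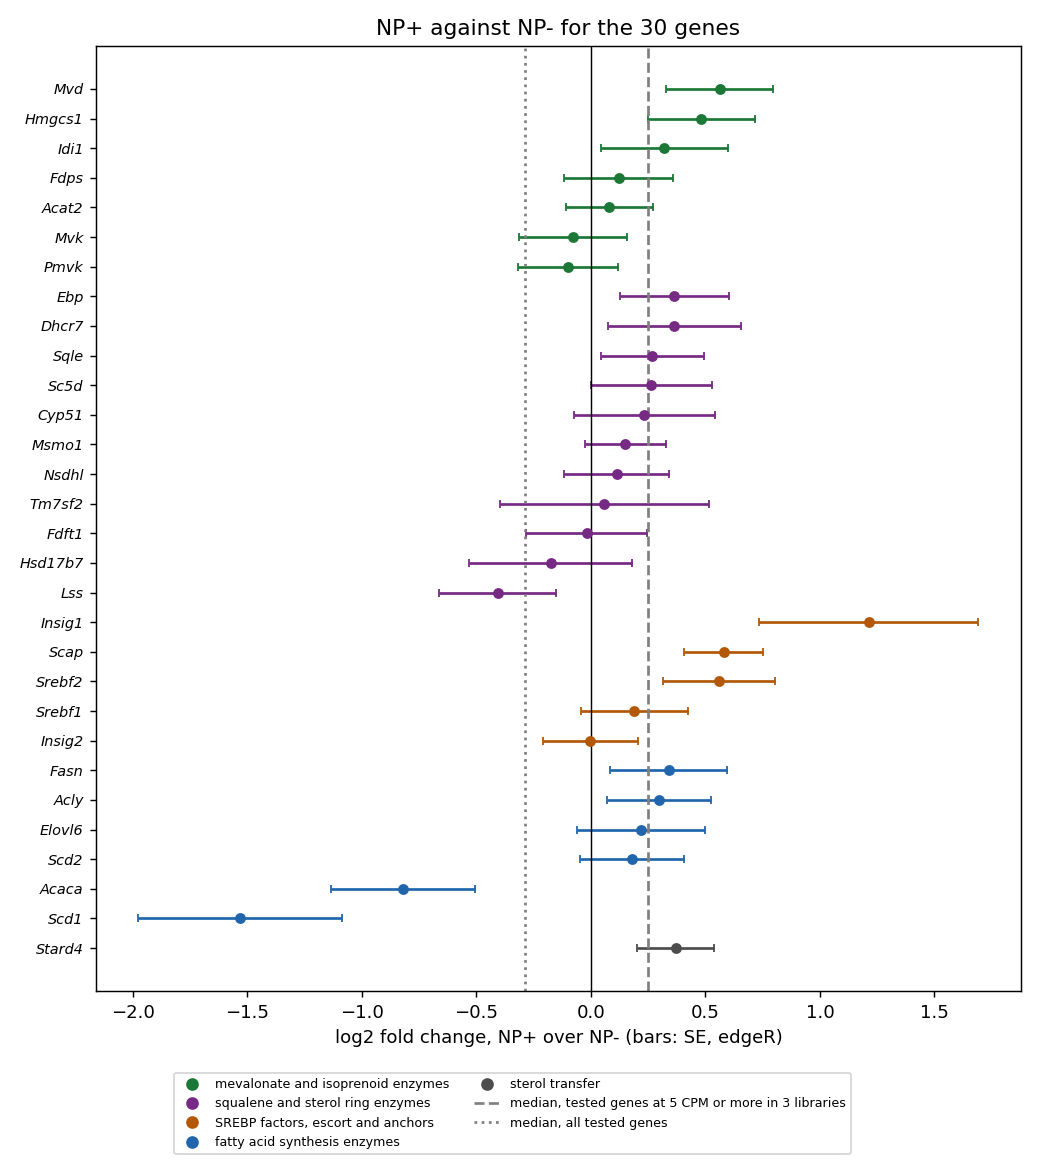
Log2 fold change of each gene, NP+ over NP-, with bars of 1 SE from edgeR, ordered by role. The dotted line marks the median of all tested genes (−0.29) and the dashed line that of genes with at least 5 CPM in 3 libraries (0.25). Most of the 30 lie near the dashed line, with Insig1 above and Scd1 and Acaca below.

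The 3 tumours did not show the same picture. In MET-106 and MET-107, 23 of 30 genes were higher in NP+ than in NP-, with median log2 ratios of 0.34 and 0.31, whereas 8 of 30 were in MET-108, with a median of −0.08. The count in MET-108 was 16 with RLE scaling, 20 without a low-count filter and 5 with upper-quartile scaling. Genes with at least 5 CPM in 3 libraries had medians of 0.26, 0.26 and 0.28 in the same tumours. Of these genes, 70.0%, 67.9% and 69.0% were higher in NP+, against 76.7%, 76.7% and 26.7% of the 30. Set against those medians, a count that a constant factor between libraries does not move, 18, 16 and 6 of the 30 lay above. Those 6 in MET-108 were Insig1, Ebp, Scap, Insig2, Dhcr7 and Stard4. Whether the tumours differ was not tested, with 1 NP+ and 1 NP- library in each.

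Within MET-108 several sterol enzymes had a higher level in the NP- library while Insig1 was far lower there. There Cyp51 had 37.2 CPM in NP+, against 59.5 CPM in NP-. Fdft1 had 64.3 CPM in NP+, against 103 CPM in NP-. Fdps had 42.1 CPM in NP+, against 58.3 CPM in NP-. On the other side stood Insig1, with a log2 ratio of 2.74, and Ebp, with one of 0.98. Of the 30 genes, 14 (46.7%) had their highest NP- level in MET-108, as did 35.2% of genes with at least 5 CPM in 3 libraries. Over all 3 tumours, 5 of 30 were higher in NP+ in each (Mvd, Dhcr7, Scap, Insig1 and Stard4) and 2 were lower in each (Scd1 and Acaca). The shares over all genes tested were 20.0% and 30.2%, and over genes with at least 5 CPM in 3 libraries 40.4% and 8.37%. For groups without overlap the counts were 4 of 30 above (Insig1, Mvd, Scap and Stard4) and 2 below (Scd1 and Acaca), where all genes tested gave 13.3% and 15.6% and those with at least 5 CPM in 3 libraries 27.8% and 4.85%.

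**Figure D5:**
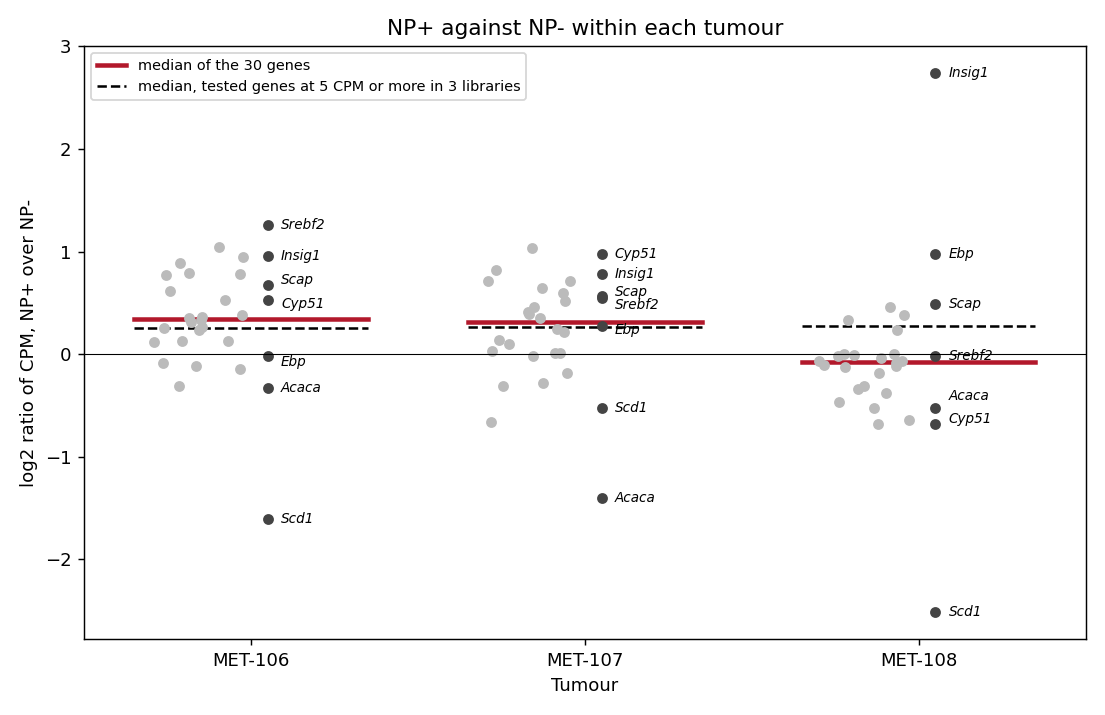
Log2 ratio of CPM, NP+ over NP-, of each of the 30 genes within each tumour, with the median of the 30 as a red bar and that of genes with at least 5 CPM in 3 libraries as a dashed line. The medians of the 30 are 0.34, 0.31 and −0.08, and Insig1 reaches 2.74 and Scd1 −2.52 in MET-108.

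Further genes of the pathway were read from 3 lists. The first holds the proteases that cleave SREBP, factors of sterol-regulated protein degradation and electron donors of the sterol enzymes. It also holds the enzyme genes Ggps1, Lbr and Acat1, which belong to none of these classes. In this list 15 of 15 genes had positive log2 fold changes, as did 74.4% of genes with at least 5 CPM in 3 libraries. The median was 0.32 (9 of 15 positive, with medians of 0.08 and 0.03, under upper-quartile and total-count scaling). Of these, 3 were higher at an unadjusted p under 0.05 and none lower, where 8.01% of all genes tested and 17.7% of those with at least 5 CPM in 3 libraries were higher. None passed edgeR's adjusted p. The 3 became 0 under upper-quartile scaling, under total-count scaling, at 5 CPM, without NP+ MET-108 and without tumour MET-108, and 6 without a filter, without NP- MET-106 and without tumour MET-106. Among them were Ggps1, geranylgeranyl diphosphate synthase, at 0.51 (unadjusted p = 0.0406) and Cyb5b, a cytochrome b5, at 0.44 (unadjusted p = 0.0430). With the tumour as a block, 1 of the 15 stayed under an unadjusted p of 0.05, Ggps1 (unadjusted p = 0.0472). Lbr, the lamin B receptor and a sterol reductase like Tm7sf2, was at 0.36 (unadjusted p = 0.0550).

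In the second list, other genes of fatty acid synthesis, elongation and desaturation, 29 of 30 were tested (not Elovl3). Of the 29, 16 (55.2%) had positive log2 fold changes, against 74.4% of genes with at least 5 CPM in 3 libraries. The median was 0.14 (−0.11 under upper-quartile and −0.16 under total-count scaling), and 4 were higher and 3 lower at an unadjusted p under 0.05. The shares were 8.01% higher and 15.4% lower over all genes tested, and 17.7% and 4.18% over those with at least 5 CPM in 3 libraries. None passed edgeR's adjusted p. The 3 lower became 1 with limma-voom, without NP- MET-107 and without NP- MET-108, 0 without NP+ MET-106, and 6 with total-count scaling and without NP- MET-106. The 4 higher became 8 without NP- MET-106 and 9 without tumour MET-106. Slc25a1, the carrier that exports citrate from mitochondria for Acly, had 82.1, 82.2 and 85.1 CPM in NP+ libraries and 54.1, 31.5 and 13.2 CPM in NP- libraries, a log2 fold change of 1.34 (unadjusted p = 0.0119). Its groups do not overlap, and as for Insig1 the MET-108 NP- library is the lowest. Fads1, the delta-5 desaturase of long polyunsaturated fatty acids, averaged 127 ± 16.1 CPM in NP+ and 70.5 ± 16.5 CPM in NP- (SD, n = 3 each), a log2 fold change of 0.84 (unadjusted p = 0.00396, edgeR). Mcat, the malonyl transferase of mitochondrial fatty acid synthesis, was at 1.86 (unadjusted p = 0.00353). Scd3, another desaturase paralog beside Scd1, was at −2.17 (unadjusted p = 0.0181), at 0.651 ± 0.289 CPM for NP+ and 2.95 ± 1.75 CPM for NP- (SD, n = 3 each), where the olfactory receptor level corresponds to 0.221 CPM for NP+ and 0.978 CPM for NP-. The others, named after their values were seen, were Acsl4 on the higher side (log2 fold change 0.44, unadjusted p = 0.0340, and 0.0764 with the tumour as a block, edgeR) and Thrsp and Mlxipl on the lower. Thrsp was at −0.98 (unadjusted p = 0.026, and 0.0138 with the block, edgeR). Mlxipl was at −2.63 (unadjusted p = 0.0426, and 0.0166 with the block, edgeR). Mlxipl averaged 0.43 CPM in NP+ and 2.70 CPM in NP-, where the olfactory receptor level corresponds to 0.353 and 1.56 CPM.

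In the third list, sterol esterification, oxysterols, the LXR receptors and sterol transport, all 15 genes were tested, with a median of 0.19 (−0.05 under upper-quartile and −0.10 under total-count scaling), and 1 was higher and 3 lower at an unadjusted p under 0.05, where the shares of all genes tested are those just given. None passed edgeR's adjusted p. Across the settings tried, 1 to 5 were higher, with 5 when no filter was used and 4 without NP- MET-106, and 1 to 4 were lower, with 1 without tumour MET-106 or MET-107. Abcg1, a sterol exporter that LXR induces, averaged 212 ± 21.4 CPM in NP+ and 117 ± 20.6 CPM in NP- (SD, n = 3 each). The lowest NP+ library had 187 CPM and the highest NP- library 141 CPM. The groups therefore do not overlap, and the log2 fold change was 0.85 (unadjusted p = 0.00153, edgeR adjusted p = 0.109). Nr1h3, which codes for LXR alpha, averaged 8.61 ± 1.86 CPM in NP+ and 19.7 ± 5.13 CPM in NP- (SD, n = 3 each), a log2 fold change of −1.20 (unadjusted p = 0.00446, edgeR). Cyp7b1 and Cyp27a1, hydroxylases of oxysterols, were at −3.85 (unadjusted p = 0.00703) and −2.42 (unadjusted p = 0.0178). Both were low, with NP+ libraries at 0.577 CPM or below, and Cyp7b1 reached 10.7 CPM only in the NP- library of MET-106 with its fibroblast markers, against 0.915 and 2.56 CPM in the other NP- libraries.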

How the data were processed

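RNA from 3 NP+ and 3 NP- fractions of 3 tumours was made into libraries with SMART-Seq v4, which does not mark strand or molecules, and sequenced as paired reads, per the labels' protocols. The authors deposited a whole-number count for every gene in each library. The submitters' processing notes name Trimmomatic 0.036, STAR 2.5.2b, Subread 1.5.2 with featureCounts, DESeq2 and the build GRCm38 (mm10). Strand and multi-mapping settings and the release of the annotation are not given in the sources used. The authors' deposited table gives log2 fold changes of NP- over NP+, whose sign was turned here, with the authors' deposited p-values before and after adjustment.

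The 30 genes, the further lists and the tests were chosen with earlier results of these data known, and lists are described by counts and medians. The test was the quasi-likelihood test of edgeR 4.0.16 in R 4.3.3, with no block, with TMM scaling, filterByExpr by group (minimum count 10) and Benjamini-Hochberg adjustment over 23989 genes. The SE is the absolute log2 fold change over the root of F. CPM are TMM-scaled, and RPKM are CPM per kilobase of the length in the count files. Reads carry no molecular identifiers, and the lowest count of any of the 30 genes in a library was 93. Libraries of 1 tumour come from the same animal: deviations from the group means correlated at 0.241, 0.194 and 0.0593, in the order of the tumour numbers. The p-values rest on the spread between 3 tumours.

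Values in full are given for genes at an unadjusted p under 0.05, for the gene of each role with the highest RPKM and for the 3 pairs of related genes. From the further lists up to 4 genes with the smallest p are named. For 1 such gene the result is not reported here. Other settings tried were the tumour block, DESeq2 1.42.0, limma-voom (limma 3.58.1), scaling by RLE, upper quartile or total count, a low-count filter of none or of 5 CPM in 3 libraries, and leaving out any 1 library or tumour. Simulated counts with known changes were used to check the tests. Their dispersion, the spread between libraries beyond counting noise, was set below the median of these data (0.362), and they had no tumour pairs. That check therefore does not show how the tests perform at the spread seen here. Removal of the olfactory receptor level, the adipocyte sum without 3 markers, the Scd2 ratio without that level and the counts per tumour under other scalings were added after seeing the data.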

Additional observations from a re-analysis of the deposited data

How the results depend on the processing

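Of the 30 genes, 14 kept the sign of their log2 fold change in all 8 settings with every library, and 13 of them also in the 6 fits without a library and the 3 without a tumour. DESeq2 called 1 of the 30 higher and 1 lower, and the fit without a low-count filter called 1 higher; no fit without a library called any (0 in each direction). Over all genes, 3 were called higher, against 966 by DESeq2, 12 by limma-voom, 525 without a filter, 18 at 5 CPM and 0 to 968 without a library or tumour. Called lower were 4, against 13 with the tumour as a replicate block, 2365 by DESeq2, 18 under upper-quartile and 9 under total-count scaling, 686 without a filter, 87 at 5 CPM and 0 to 1352 without a library or tumour; the cause was not tested. At an unadjusted p under 0.05, the 4 higher became 0 with upper-quartile scaling, total-count scaling and at 5 CPM, and 1 to 7 without a library or tumour. The 2 lower became 1 with the replicate block, with limma-voom and without a filter, and 0 to 2 without a library or tumour. Groups without overlap numbered 4 above, against 2 with upper-quartile scaling, total-count scaling and at 5 CPM, 8 without a filter and 5 to 16 without a library or tumour. They numbered 2 below, against 5 with total-count scaling and at 5 CPM and 2 to 4 without a library or tumour. Over all genes tested, 3183 of 23989 lay above and 3745 below. With upper-quartile scaling these were 1467 and 4879, with total-count scaling 1150 and 5518, and at 5 CPM 1198 and 1261 of 10671. Without a filter they were 4364 and 4760 of 44259. Without tumour MET-108, the fit with 16 above, they were 5404 and 6475 of 25358. Groups of fewer libraries lie apart more easily. The median log2 fold change of 0.20 became −0.051 with upper-quartile scaling, −0.092 with total-count scaling, −0.065 at 5 CPM and 0.13 to 0.45 without a library or tumour. In MET-107, 15 genes were higher with total-count scaling, against 23. In MET-108, 16 were with RLE scaling, 5 with upper-quartile scaling and 20 without a filter, against 8. Signs turned for genes whose log2 fold change in the main fit lay from −0.18 (Hsd17b7) to 0.30 (Acly). With upper-quartile scaling, total-count scaling and at 5 CPM, the log2 fold changes were −0.17, −0.22 and −0.19 for Acat2, −0.12, −0.17 and −0.14 for Fdps, and −0.026, −0.055 and −0.029 for Cyp51. They were −0.19, −0.24 and −0.21 for Tm7sf2, −0.090, −0.14 and −0.11 for Msmo1, and −0.14, −0.19 and −0.16 for Nsdhl. They were −0.076, −0.11 and −0.085 for Srebf1, −0.025, −0.073 and −0.045 for Elovl6, and −0.088, −0.13 and −0.10 for Scd2. With total-count scaling alone Sqle was at −0.028, Sc5d at −0.018 and Acly at −0.011. Without a filter Mvk was at 0.13 and Pmvk at 0.074. With the replicate block, DESeq2, limma-voom, RLE scaling and no filter, Fdft1 was at 0.046, 0.041, 0.058, 0.041 and 0.19 and Insig2 at 0.0096, 0.052, 0.0035, 0.053 and 0.18. Without a library or tumour, signs turned for Cyp51 (−0.061 to 0.78), Fdft1 (−0.23 to 0.49), Fdps (−0.16 to 0.46), Hsd17b7 (−0.46 to 0.11), Insig2 (−0.13 to 0.25), Mvk (−0.13 to 0.086), Pmvk (−0.27 to 0.12), Sc5d (−0.066 to 0.67) and Tm7sf2 (−0.11 to 0.36). Each group has 3 libraries, and the lowest library had 20856410 counts.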
